A study of Mus musculus with 4 samples.

Results

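Classical MHC class II molecules are pairs of an alpha and a beta chain that carry peptides to the cell surface for CD4 T cells. Their supply depends on the invariant chain Cd74, which escorts new pairs to the endosome, on H2-DM, which exchanges the last invariant chain fragment for a peptide, and on Ciita, the coactivator that turns the class II genes on without binding DNA itself. In the healthy retina few cells make these molecules, and in injured nervous tissue activated microglia, infiltrating macrophages and dendritic cells are known sources. The genes described here are Cd74, H2-Aa, H2-Ab1, H2-Eb1, H2-DMa, H2-DMb1 and Ciita, taken by symbol from the deposited gene table. Of these 7 symbols 6 were found among its 14572 entries, and H2-DMb1 was not analysed here.

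Total RNA was sequenced from mouse retinas of strain C57BL/6. Every retina had first undergone acute ocular hypertension for 1 h, in which raised pressure in the eye injures the retina as a model of glaucoma, and was taken 5 days later. There were 2 wild-type libraries (P1041 and P1033) and 2 libraries of mice labelled PLSCR1 transgenic (TP-1036 and TP-1040), and PLSCR1 is a phospholipid scramblase of the plasma membrane. The labels give an embryonic age of E14.5 for every sample, which does not match that treatment. The promoter of the transgene, the number of founder lines and whether retinas were pooled remain unstated in the labels, and uninjured retinas were not analysed here. All 9 rod markers and all 10 ganglion cell markers of the lists used were in the table, which bears on the labelled tissue. Totals ran from 28866589 to 41215649 estimated reads per library. Plscr1 itself had 7.98 and 8.36 CPM (reads per 1000000 of the scaled library) in wild type against 9.80 and 8.06 CPM in the libraries of the other group, so the groups overlapped (log2 difference 0.13 ± 0.17, SE, adjusted p = 0.742 in edgeR). The second group is therefore called transgenic-labelled. TP-1036 stood apart by its reads of 3 lens crystallins, with a summed 233 CPM against 3.31, 0.818 and 5.71 CPM in P1041, P1033 and TP-1040. The Y-linked gene Kdm5d had 52.8 and 40.9 CPM in P1041 and P1033 against 26.2 and 6.3 CPM in TP-1036 and TP-1040. Whether the libraries differed in the sex of the mice was not tested. Because these are bulk libraries, more cells of a type and more RNA per cell cannot be told apart. Nothing states that libraries of a group came from separate animals, so the p-values refer to variation among these libraries alone, which may be technical.

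The class II chain genes lie side by side on mouse chromosome 17, and their promoters share short elements known as the X box, bound by the RFX complex with CREB at its far end, and the Y box, bound by NF-Y. RefSeq promoter windows on GRCm38.p6, from 250 bases before to 50 after a start, were at hand for 4 of the 7 genes, and Cd74, H2-Ab1 and Ciita had no window here. Those of H2-Aa and H2-Eb1 are shown with a window of H2-DMa, and no link between these letters and the levels of the genes was tested. Capitals mark matches on the strand shown to ACNGATG (an X box core), TGACGTCA (the full CREB element) and CTGATTGG (a Y box, which contains the core ATTGG). The motifs TGACGTCA and CTGATTGG were added after the sequences had been seen.
H2-Eb1, chr17:34305617-34305916, plus strand: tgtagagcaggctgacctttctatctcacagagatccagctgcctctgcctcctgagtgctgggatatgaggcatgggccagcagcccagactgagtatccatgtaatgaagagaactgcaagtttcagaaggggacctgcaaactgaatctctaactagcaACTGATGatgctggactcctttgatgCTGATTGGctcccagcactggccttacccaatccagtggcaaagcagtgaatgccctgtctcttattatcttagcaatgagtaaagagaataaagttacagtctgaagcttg
H2-Aa, chr17:34287774-34288073, minus strand: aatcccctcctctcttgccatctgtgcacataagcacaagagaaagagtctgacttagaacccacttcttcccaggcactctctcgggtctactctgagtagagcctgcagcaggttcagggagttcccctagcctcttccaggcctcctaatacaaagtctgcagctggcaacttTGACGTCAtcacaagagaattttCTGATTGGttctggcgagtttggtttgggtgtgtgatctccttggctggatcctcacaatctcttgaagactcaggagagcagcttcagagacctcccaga
H2-DMa, chr17:34122582-34122881, plus strand: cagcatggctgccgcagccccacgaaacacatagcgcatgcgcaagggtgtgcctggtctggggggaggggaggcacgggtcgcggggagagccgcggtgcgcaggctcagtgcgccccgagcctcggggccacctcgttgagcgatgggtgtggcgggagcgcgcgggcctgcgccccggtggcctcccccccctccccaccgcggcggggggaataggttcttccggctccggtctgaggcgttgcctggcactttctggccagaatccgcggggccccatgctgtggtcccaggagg

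The H2-Eb1 window held ACNGATG starting 88 bases before the start and ATTGG 22 bases after the end of that match, in the order X box then Y box. This pair, with 15 to 35 bases between its parts and either strand searched, was in 57 of 32851 windows (0.174%). The H2-DMb1 window held it too, with 23 bases between the parts. The H2-Aa window had ATTGG 48 bases before the start and TGACGTCA 74 bases before it, but ACNGATG only on the other strand and far upstream. CTGATTGG was in the windows of H2-Aa and H2-Eb1 and in 4.10% of all windows, TGACGTCA in 1.79%, ACNGATG in 9.85% and ATTGG in 37.4%. The window of H2-DMa shown here held none of these, and a second H2-DMa window, which starts at 34125268, held ATTGG alone. The gamma-activated site TTCNNNGAA, in 8.30% of windows, and the interferon response element, in 3.44%, were in none of these windows. A match is a description of letters and not a bound site. The H2-DMa window shown also takes in base 34122634, where Brd2 begins on the other strand in GENCODE M21. Both H2-DMa windows lie inside the annotated span of H2-DMa, 34119541 to 34139101. Whether either is the start used in these retinas was not tested, so the lack of motifs is read for these letters alone.

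Both chains of the I-A molecule had several times higher values in the transgenic-labelled libraries. H2-Aa, the alpha chain, had 19 and 47 reads in the wild-type libraries P1041 and P1033 and 374 and 218 in TP-1036 and TP-1040. On the CPM scale these were 0.662, 1.42, 9.88 and 5.34, so the lower transgenic-labelled library stood 3.75 times above the higher wild-type one. H2-Ab1, the beta chain that pairs with it, had 35, 52, 367 and 205 reads in the same order, or 1.22, 1.58, 9.69 and 5.03 CPM. Its groups lay apart as well, by a factor of 3.19 between the nearest libraries. The log2 difference was 2.84 ± 0.45 (SE) for H2-Aa, a 7.18-fold difference with a 95% interval from 3.39 to 15.2. For H2-Ab1 it was 2.39 ± 0.38 (SE), which is 5.23-fold with an interval from 2.78 to 9.84.

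H2-Eb1 encodes the beta chain of I-E, whose alpha chain partner is not made in mice of the b haplotype such as C57BL/6. It had the fewest wild-type reads of the chain genes, 10 in P1041 and 37 in P1033, against 381 in TP-1036 and 172 in TP-1040. These were 0.349, 1.12, 10.1 and 4.22 CPM, and the counting interval (exact Poisson, 95%) of the lowest ran from 0.167 to 0.641 CPM. Both groups were spread, since P1033 was 3.22 times P1041 (counting interval 1.57 to 7.25) and TP-1036 was 2.39 times TP-1040 (1.99 to 2.87). Even so the nearest libraries of the groups were 3.76-fold apart. The log2 difference was 3.24 ± 0.61 (SE), with a fold interval from 3.43 to 26.1.

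Cd74, the invariant chain, showed a difference of like size. P1041 and P1033 had 48 and 108 reads of it, TP-1036 and TP-1040 had 1003 and 612, and these gave 1.67, 3.27, 26.5 and 15 CPM. The group means were 2.47 ± 1.13 and 20.7 ± 8.12 CPM (SD, n = 2 per group), and the nearest libraries were 4.58-fold apart. Within each group the libraries differed beyond counting error, by 1.96-fold (1.38 to 2.81) between P1033 and P1041 and by 1.77-fold (1.60 to 1.96) between TP-1036 and TP-1040. The log2 difference was 3.05 ± 0.39 (SE), or 8.30-fold with an interval from 4.33 to 15.9.

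H2-DMa, the alpha chain of the peptide exchange factor H2-DM, showed a far smaller difference. It had 72, 82, 129 and 116 reads in P1041, P1033, TP-1036 and TP-1040, or 2.51, 2.48, 3.41 and 2.84 CPM. The groups did not overlap, but the nearest libraries were 1.13-fold apart and their counting intervals overlapped. The difference of 0.32 ± 0.25 (log2, SE) had a fold interval from 0.829 to 1.89, which includes no difference and lies below the fitted folds of the other 4 genes. In GENCODE M21 the H2-DMa locus overlaps Brd2 on the other strand, and reads of the overlap cannot be assigned without strand. Brd2 had 233, 231, 244 and 264 CPM in the same order.

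Ciita, the coactivator of all these genes, did not differ detectably. It had 29, 41, 41 and 43 reads in P1041, P1033, TP-1036 and TP-1040, or 1.01, 1.24, 1.08 and 1.05 CPM. The groups overlapped, and the transgenic-labelled values both lay between the wild-type ones. With so few reads each library's counting interval was wide, for example from 0.677 to 1.45 CPM in P1041. The difference, from the fit with no filter on low values, was -0.07 ± 0.31 (log2, SE), with a fold interval from 0.569 to 1.60. Cd74 had 1.66 and 2.63 times the CPM of Ciita in wild type against 24.5 and 14.2 times in the other group. The gene overlaps Dexi on the other strand, which stood at 12.8, 11.8, 14.1 and 12 CPM.

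**Figure D1:**
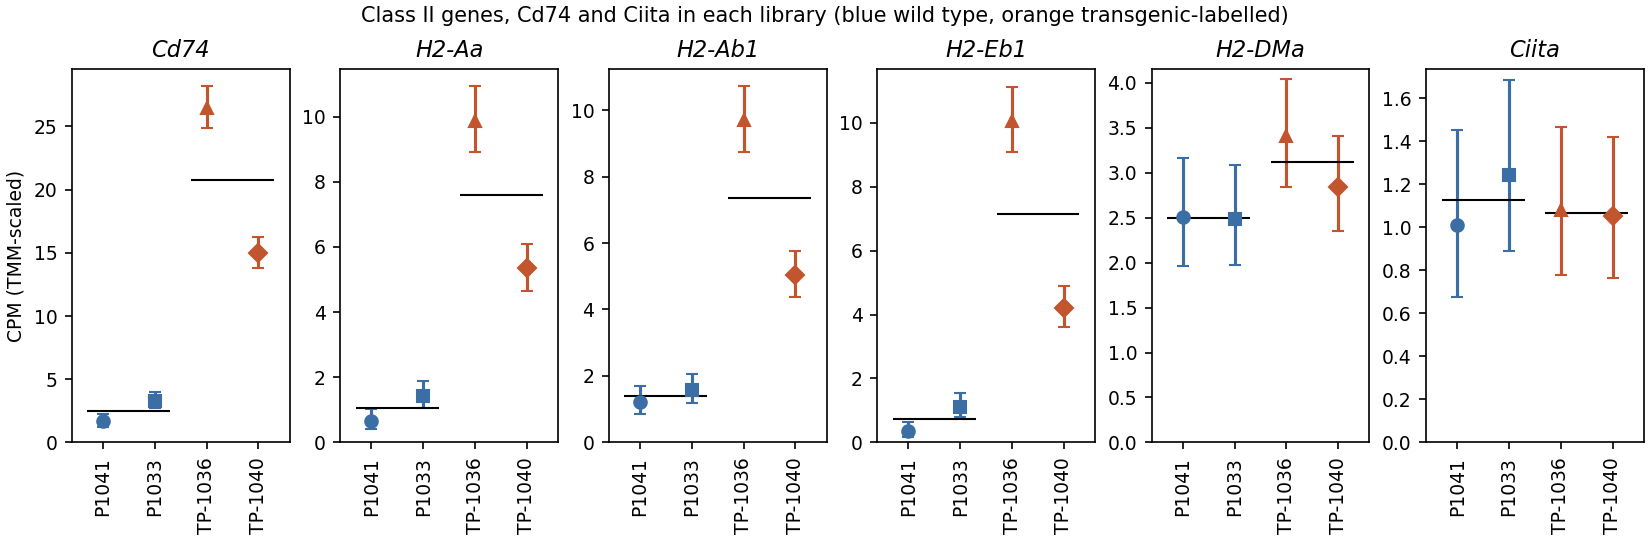
CPM of each gene (y axes, separate scales from 0) in the 4 libraries (x axis). Points are libraries with exact Poisson 95% counting intervals, black lines are group means, blue is wild type and orange is transgenic-labelled. Cd74, H2-Aa, H2-Ab1 and H2-Eb1 were higher in TP-1036 and TP-1040, the former above the latter, while Ciita stayed between 1.01 and 1.24 CPM.

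The order of the members by level was read per transcript length, using the longest transcript that GENCODE M21 matches to a RefSeq mRNA. On this FPKM scale (CPM per kilobase) Cd74 led in the transgenic-labelled libraries at 14.7 ± 5.76 (SD, n = 2). H2-Aa at 6.75 ± 2.84, H2-Ab1 at 6.07 ± 2.72 and H2-Eb1 at 4.28 ± 2.48 followed, and these 3 neighbours did not differ beyond their spread. H2-DMa at 1.89 ± 0.240 and Ciita at 0.178 ± 0.00336 came last. In wild type the top of the order was closer, with Cd74 at 1.75 ± 0.802, H2-DMa at 1.51 ± 0.0111, H2-Ab1 at 1.15 ± 0.207, H2-Aa at 0.925 ± 0.477, H2-Eb1 at 0.440 ± 0.327 and Ciita at 0.188 ± 0.0272 FPKM. Of these neighbours the libraries overlapped except between H2-DMa and H2-Ab1 and between H2-Eb1 and Ciita. There H2-DMa stood at 1.5 and 1.15 times the level of H2-Ab1 per length, against 0.257 and 0.414 times in TP-1036 and TP-1040.

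Ratios within a library are free of its scaling. H2-Aa per H2-Ab1, per length, was 0.583 and 0.971 in P1041 and P1033 and 1.1 and 1.14 in TP-1036 and TP-1040. The I-A chains were thus near parity in 3 libraries. The lower value of P1041 rests on 19 reads of H2-Aa and 35 of H2-Ab1, and its counting error was not worked out. H2-Eb1 per H2-Ab1 was 0.208 and 0.517 in wild type against 0.754 and 0.609 in the other group. The invariant chain exceeded the alpha chain by a similar factor everywhere, since Cd74 per H2-Aa was 2.02, 1.84, 2.15 and 2.25. Cd74, H2-Aa, H2-Ab1 and H2-Eb1 together made up 52.6% and 66.5% of the summed CPM of the 6 genes in P1041 and P1033 against 92.6% in TP-1036 and 88.4% in TP-1040.

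No class II gene passed the test over the whole table. In edgeR's quasi-likelihood test with Benjamini-Hochberg adjustment, 0 of the 5 members tested and 0 of 12687 genes (0.0% called higher) reached an adjusted p of 0.05, where 1126 genes were under 0.05 unadjusted and DESeq2 called 69. Cd74 had an adjusted p of 0.376, the 3 chain genes 0.529 each, H2-DMa 0.588 and, with no filter, Ciita 0.931. At an unadjusted p of 0.05 Cd74, H2-Aa, H2-Ab1 and H2-Eb1 were higher, where 4.72% of all tested genes were. The same genes had the fourth to sixth and the ninth largest log2 difference of all tested genes, and ranked 5, 12, 13 and 33 by p in the order Cd74, H2-Aa, H2-Ab1 and H2-Eb1. They were 4 of the 17 tested genes (0.134%) whose transgenic-labelled libraries both lay at least 2-fold above both wild-type ones. Simple separation was common, since 23.8% of tested genes lay higher without overlap, as did the 5 members. H2-Aa and H2-Eb1 passed the filter, a mean of 1 FPKM, only through the transgenic-labelled libraries, so these counts are descriptions. For a single gene, 2 libraries a group allow no exact permutation p (two-sided) smaller than 0.333.

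The call depended on the test and on single libraries. DESeq2 called Cd74 (adjusted p = 3.39e-15), H2-Aa (1.37e-07), H2-Ab1 (2.64e-06) and H2-Eb1 (9.01e-07) higher, among 0.434% of genes, and not H2-DMa (0.812). In edgeR the same 4 were called without P1041, where 0.15% of genes were called higher, without P1033 (0.575%) and without TP-1040 (13.6%). Without TP-1036 edgeR called Cd74, H2-Aa and H2-Ab1 (adjusted p = 0.00795, 0.0428 and 0.0428) and not H2-Eb1 (0.0780), where 0.166% of genes were called. With all libraries the members called stayed at 0 under other settings of edgeR and limma, where the share of genes called higher was 0.00686% with no filter, 0.00693% with a mean CPM of at least 1, 0.00788% with upper-quartile scaling or limma on log2(CPM + 2), and 0.0% in the rest. H2-Aa and H2-Eb1 entered the filtered fits only through the transgenic-labelled libraries, so their calls with DESeq2 or without a library are descriptions, and edgeR with no filter gave them adjusted p-values of 0.294 and 0.385. In the fits without a library, the lone library of a group is assumed to vary like the others.

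**Figure D2:**
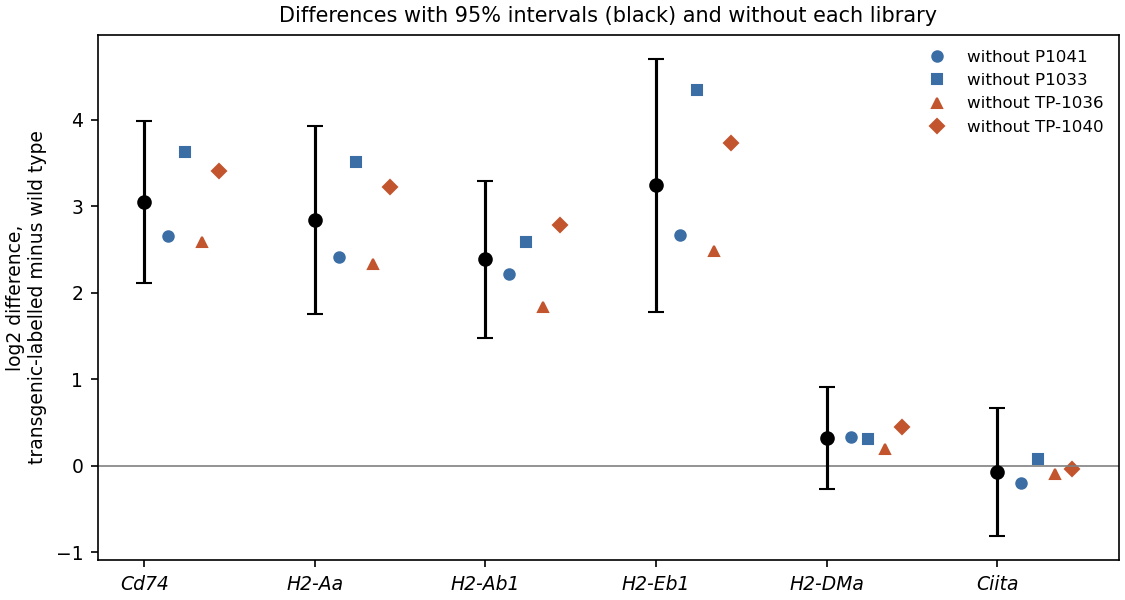
Log2 difference, transgenic-labelled minus wild type (y axis), for each gene (x axis). Black points are the fits on all 4 libraries with 95% intervals, and coloured points leave out the library named. Without any single library the lowest value of the 4 genes on the left was 1.84 (H2-Ab1), and Ciita ran from -0.20 to 0.09.

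Sizes were larger with the lens-rich library TP-1036 than without it. Without TP-1036 the log2 difference was 2.59, 2.34, 1.84 and 2.49 for Cd74, the I-A chains H2-Aa and H2-Ab1, and H2-Eb1, and TP-1040 alone had lens crystallins at 5.71 CPM in sum. Leaving the lens genes out of the fit gave 3.05, 2.84, 2.39 and 3.24. Tested genes with a longest transcript in the range of the members, 1212 to 3223 bases, had a median log2 difference of 0.14 between TP-1036 and the wild-type mean and 0.00 for TP-1040. Tested genes in the members' range of mean level had 0.02 and -0.02.

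The class II genes were set beside the rest of their pathway, in lists chosen with earlier results of these data known. Over all tested genes the median log2 difference was 0.00, and 4.72% were higher and 4.15% lower at an unadjusted p of 0.05. None of the list genes passed the adjusted threshold in edgeR, and values below are log2 differences ± SE unless said otherwise.

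Differences of the factors that act on the class II promoter were small. All 7 genes of the RFX, NF-Y and CREB list were tested, 5 with higher and 2 with lower values (median 0.06), and 0 passed an unadjusted p of 0.05. Rfx5, the DNA-binding RFX subunit, had 36.3 and 39.5 CPM in wild type against 23.8 and 33.2 CPM in the other group (-0.41 ± 0.18). Creb1 lay at -0.23 ± 0.12, and the NF-Y subunits Nfya and Nfyc at 0.16 ± 0.13 and 0.08 ± 0.11. Interferon-gamma is the classical inducer of Ciita, and the 7 tested genes of its signalling had a median of 0.23, with 5 higher and 0 at an unadjusted p of 0.05. Ifngr1, a receptor chain, lay at 0.17 ± 0.14, and the kinases Jak1 and Jak2 at -0.02 ± 0.12 and -0.05 ± 0.12. Ifng and Socs1 were not analysed here.

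Endosomal enzymes that trim the invariant chain and antigens had smaller differences than the chains. Of 8 tested genes 7 had higher values (median 0.40), 5 of them at an unadjusted p of 0.05, and DESeq2 called 1. That was Ctss, cathepsin S, which removes the invariant chain in antigen-presenting cells and is named after its values were seen. It had 26.9 and 29.9 CPM in wild type against 70.0 and 46.2 CPM in the other group (1.03 ± 0.21). The general lysosomal proteases Ctsd and Ctsb lay at 0.63 ± 0.17 and 0.45 ± 0.16, and legumain (Lgmn) at 0.33 ± 0.13. Cst3, a cathepsin inhibitor, lay at 0.34 ± 0.21. Cd74 per Ctss was 0.0623 and 0.109 in wild type against 0.378 and 0.325 in the other group.

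Class I presentation, which loads peptides of the cytosol, differed less as well. All 14 tested genes had higher values (median 0.54), 12 at an unadjusted p of 0.05, and DESeq2 called 0. B2m, the class I light chain, had 75.3 and 83.5 CPM in wild type against 157 and 99.9 CPM in the other group (0.69 ± 0.21). The loading factors Calr, Pdia3 and Tapbp lay at 0.42 ± 0.14, 0.40 ± 0.12 and 0.40 ± 0.15. Nlrc5, the coactivator of class I genes and a relative of Ciita, was under the filter and is named after its values were seen. It had 3.63, 4.67, 4.04 and 6.01 CPM, with overlapping groups. Per 100 CPM of B2m, Cd74 stood at 2.22 and 3.92 in wild type against 16.9 and 15 in the other group.

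Ligands that steer T cells at the same contact were few in the table. Cd86, a costimulator of antigen-presenting cells, had 0.976 and 1.06 CPM in wild type against 1.77 and 1.67 in the other group (0.76 ± 0.29, no filter). Cd83 and Cd274, the inhibitory ligand PD-L1, lay at 0.18 ± 0.20 and 0.04 ± 0.23, and Icosl at 0.38 ± 0.34 with no filter. None of these passed an adjusted threshold, and Cd80, Cd40 and Pdcd1lg2 were not analysed here. The same holds for 6 other class II alpha, beta, DM and DO chain genes. The ligases of class II turnover, sought under 4 symbols of the MARCH family, could not be matched, and 22 entries of the table carry dates in place of names.

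**Figure D3:**
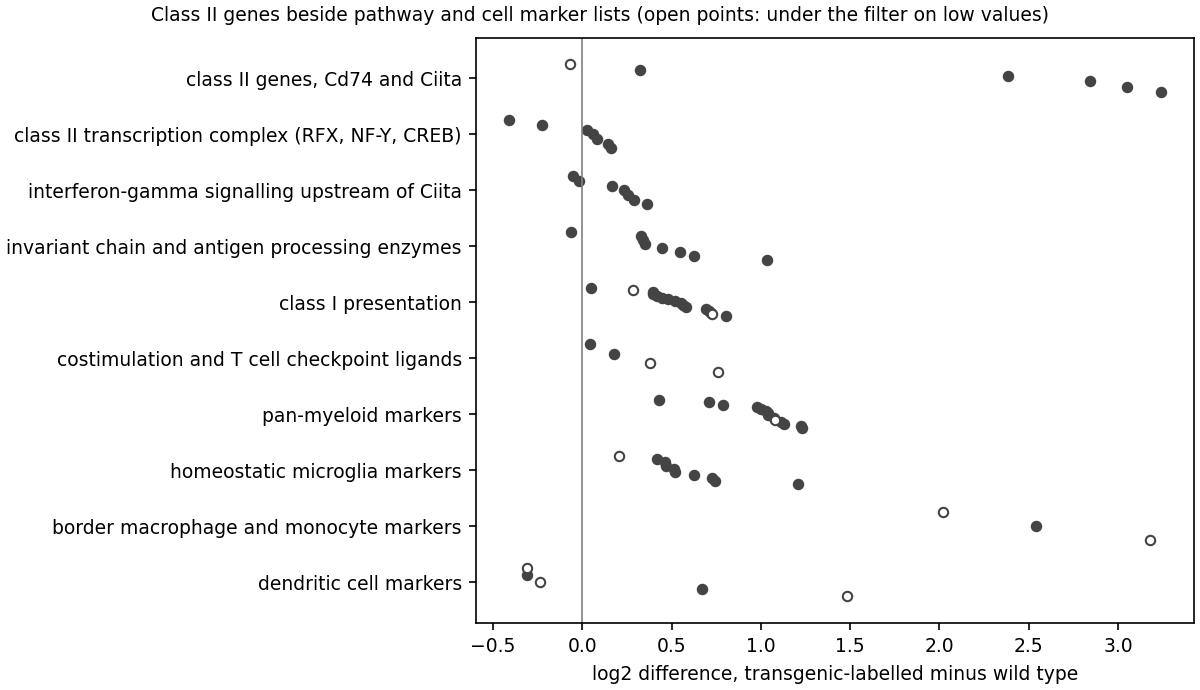
Log2 difference, transgenic-labelled minus wild type (x axis), of each gene (points) in the class II group and 9 lists (y axis). Filled points were tested, and open points lay under the filter and come from the fit without it. Cd74, H2-Aa, H2-Ab1 and H2-Eb1 lie from 2.39 to 3.24, beyond every gene of the class I, enzyme and microglia lists. In the border macrophage and monocyte list Lyz2 (2.54) and Ms4a7 (3.18, no filter) lie within that range and Cybb (2.02, no filter) below it. Ms4a7 had 7 reads in each wild-type library.

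Neighbours of the class II chains on the chromosome had smaller differences. Within 200000 bases around the span from H2-DMa to H2-Eb1 on chromosome 17 (GENCODE M21, GRCm38) the table held 22 genes. The 17 tested genes there that are not class II genes had a median of 0.18, from -0.30 to 0.72, and 13 of them were higher. Tap1, Psmb8 and Tap2, peptide transport and immunoproteasome genes between H2-DMa (34119541 to 34139101) and H2-Ab1 (34257689 to 34269419), lay at 0.71 ± 0.23, 0.72 ± 0.28 and 0.45 ± 0.14. H2-Aa (34282744 to 34287823, minus strand) and H2-Eb1 (34305867 to 34316674) follow next. Ciita lies on chromosome 16 (10480059 to 10528418) and Cd74 on chromosome 18. The submitters' notes name mm8 and mm9, so these positions are those of the annotation and not of the authors' alignment.

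**Figure D4:**
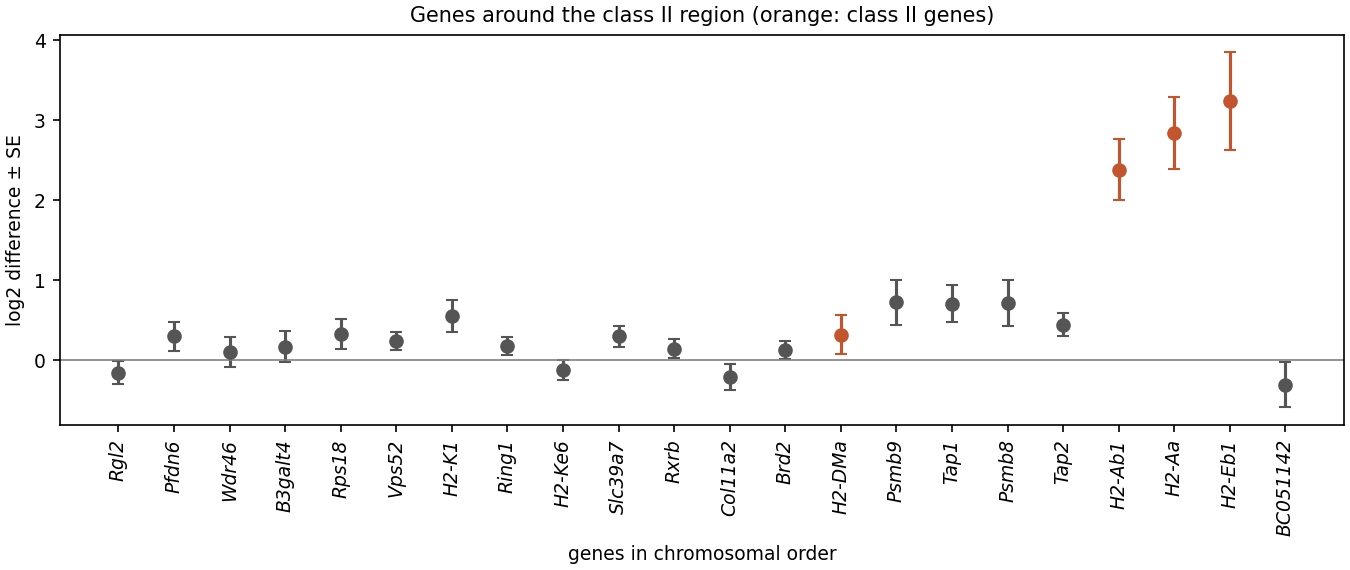
Log2 difference ± SE, transgenic-labelled minus wild type (y axis), of the 22 genes around the class II region in chromosomal order (x axis, not to distance). H2-Ab1, H2-Aa and H2-Eb1, in orange, stand above their neighbours, and H2-DMa, also in orange, does not.

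Markers of myeloid cells were higher together with the class II genes. All 13 tested pan-myeloid markers had higher values (median 1.04), 10 at an unadjusted p of 0.05, and DESeq2 called 7. Their summed level was 142 and 163 CPM in wild type against 359 and 229 CPM in TP-1036 and TP-1040. Csf1r, the receptor that microglia and macrophages depend on, had 32.4, 41.0, 75.0 and 45.0 CPM, and C1qa, a complement subunit made by microglia, 21.9, 23, 56.7 and 35.7 CPM. Homeostatic microglia markers summed to 108 and 114 CPM in wild type against 214 and 145 CPM in the other group. All 9 tested were higher (median 0.52), 5 at an unadjusted p of 0.05, with the chemokine receptor Cx3cr1 at 0.73 ± 0.22. TP-1036 was above TP-1040 in these sums, as in the class II genes, and the part of these cells in the class II result was not tested.

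Relative to these markers Cd74 and the chains still had higher values, given here as descriptions with no test. Cd74 per 100 CPM of pan-myeloid markers was 1.18 and 2.01 in wild type against 7.37 and 6.55 in the other group, a 4.37-fold difference in the mean. The same ratio differed 3.79-fold in H2-Aa, 2.68-fold in H2-Ab1 and 4.97-fold in H2-Eb1, each without overlap. How many of all tested genes lie apart on this scale was not counted. The ratio was lower in the transgenic-labelled libraries for H2-DMa, with 1.77 and 1.52 in wild type against 0.948 and 1.24. It was lower for Ciita as well, with 0.712, 0.762, 0.301 and 0.460. The marker sum itself was 1.93-fold higher in the transgenic-labelled mean, so a gene of equal CPM in both groups also has a lower ratio. The spread of Cd74 between TP-1036 and TP-1040 was smaller on this scale than in CPM.

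The few measured markers of border macrophages and monocytes also had several times higher values. Of 11 genes 3 were in the table, of which Lyz2 alone was tested while Ms4a7 and Cybb lay under the filter, and 8 (Mrc1, Cd163, F13a1, Ccr2, Ly6c2, Plac8, Clec12a and Pf4) were not analysed here. Lyz2, the lysozyme of macrophages, had 7.11, 9.97, 48.7 and 50.8 CPM in P1041, P1033, TP-1036 and TP-1040. Ms4a7, a macrophage membrane gene low in resting microglia, had 0.244, 0.212, 2.06 and 2.08 CPM, with only 7 reads in each wild-type library. Cybb, the phagocyte oxidase, had 1.32, 1.55, 5.99 and 5.59 CPM. The log2 difference was 2.54 ± 0.18 for Lyz2 and, with no filter, 3.18 ± 0.36 for Ms4a7 and 2.02 ± 0.23 for Cybb, the last below every chain gene. These genes had like values in TP-1036 and TP-1040, where Cd74 and the chains differed 1.77-fold to 2.39-fold. The summed 6 genes per 100 CPM of this list were 85.5 and 94.8 in wild type against 107 and 57.2 in the other group, so the groups overlapped, against 5.23, 6.82, 16.9 and 14.6 per 100 CPM of pan-myeloid markers. The sum rests mostly on Lyz2, and whether microglia or other macrophages gave these reads was not tested.

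**Figure D5:**
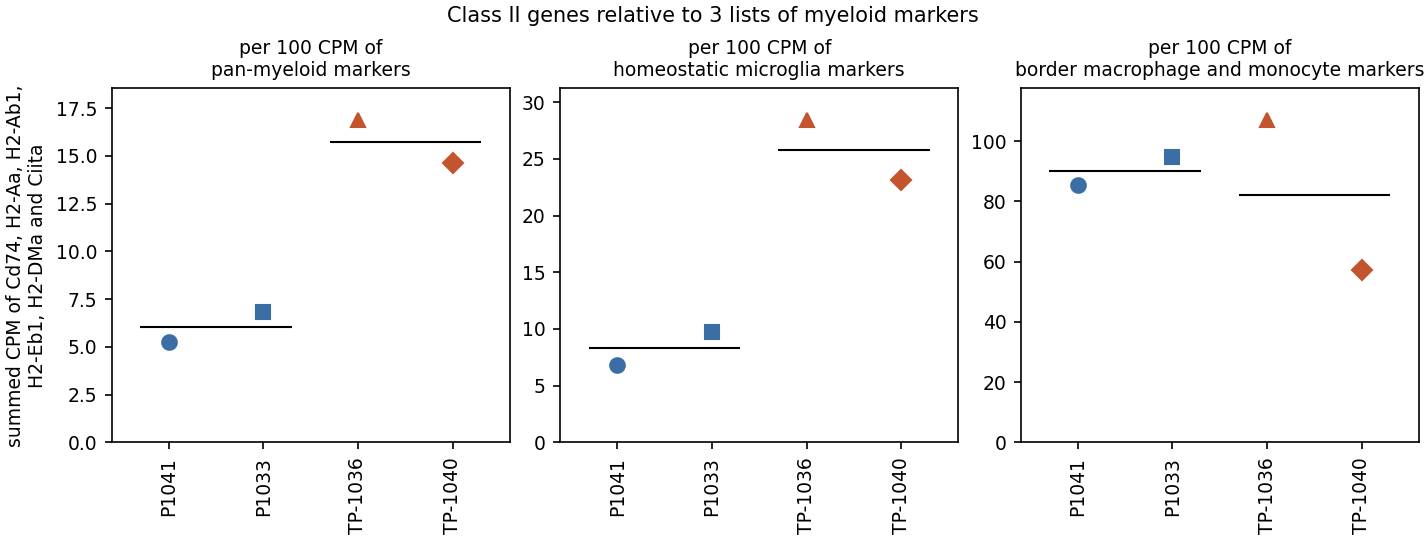
Summed CPM of Cd74, H2-Aa, H2-Ab1, H2-Eb1, H2-DMa and Ciita per 100 CPM of 3 marker lists (y axes, from 0) in the 4 libraries (x axis). Black lines are group means. The groups lie apart for pan-myeloid (5.23 to 6.82 against 14.6 to 16.9) and microglia markers and overlap for border macrophage and monocyte markers.

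Other antigen-presenting cells were sparsely covered. Of 11 dendritic cell markers 5 were in the table. Zbtb46, a transcription factor of classical dendritic cells, had 6.94, 7.09, 5.25 and 6.05 CPM, and Flt3, their growth factor receptor, 1.81, 1.67, 1.51 and 1.42 CPM. Irf8, shared with microglia, lay at 0.67 ± 0.22, and the integrin Itgax, also of activated microglia, had 0.453, 0.727, 1.85 and 1.47 CPM. Which cells gave the reads of any of these genes, Zbtb46 and Flt3 included, was not tested. Xcr1, Clec9a, Cd209a, Batf3, Ccr7 and Clec10a were not analysed here. Of 8 B cell and 8 T cell markers 0 were in the table, so those cells were not analysed here.

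The genes nearest to the class II pattern were found from the distance between profiles. For each tested gene log2(CPM + 0.5) was centred on its wild-type mean, and the Euclidean distance over the 4 libraries to the mean profile of Cd74, H2-Aa, H2-Ab1 and H2-Eb1 was taken. The members and genes with clone or model names were left out of the ranking. The nearest 8 were Lyz2 (distance 0.714), Serpine3 (0.820), Ttr (1.55), Gpnmb (1.58), Prss56 (1.58), C3ar1 (1.77), Pld4 (1.82) and Col1a2 (1.85). The 4 genes themselves lay at 0.12 to 0.712 from a mean that contains them, so these distances cannot be set against those of other genes. H2-DMa lay at 3.16 and Ciita at 3.6. With profiles centred on wild type, the distance also reflects the size of the difference. Serpine3, of the serpin family, had 1.05, 1.37, 7.82 and 8.76 CPM, and Gpnmb, of activated phagocytes, 13.8, 22.7, 48.8 and 47.8 CPM. C3ar1, the receptor of the complement fragment C3a, had 3.87, 3.97, 11 and 9.73 CPM. Ttr, which had 41.6 CPM in TP-1036 and 28.4 CPM in TP-1040, was higher in the former as the class II genes were, and Lyz2 and Serpine3 were not. The list describes 4 libraries and carries no test.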

How the data were processed

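Retinal RNA libraries were made with an Illumina TruSeq kit, per the labels' protocols. Bowtie 0.12.2 and the builds mm8 and mm9 appear without a role in the submitters' processing notes. Counter, annotation and strand setting: not given in the sources used here. For each library the authors deposited a column of estimated counts in 1 table, whose unit was taken from the values (80.3% to 82.4% whole numbers), and the smallest total of an entry was 76.9 reads. The 4 other columns of per-sample values were not used. Column names give the group, and their numbers match no label. With 2 groups in the series, columns marked case were read as transgenic.

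Counts were rounded and fitted with edgeR 4.0.16 in R 4.3.3 (TMM, quasi-likelihood, two-sided, Benjamini-Hochberg) over the 12687 genes whose mean FPKM reached 1, using the longest GENCODE M21 transcript and, for 167 unmatched names, the median of 3472 bases. H2-Aa is less certain in that filter, since its longest transcript (3223 bases) exceeds the RefSeq-matched one (1128 bases). Estimation can split reads among near-identical H2 genes, which makes these values less certain. SE is the log2 difference over the root of F, and CPM uses TMM-scaled library sizes. Counting intervals cover counting error only. Alternatives were DESeq2 1.42.0, limma 3.58.1, other scalings and filters, no lens genes, and each library left out. The script was tested on simulated data.

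The members and the 20 gene lists were chosen with earlier results of these data known. The text names the members, from each other list genes past the threshold and up to 4 with the highest mean CPM, and the 8 nearest profiles. Some genes that this rule names are not reported here. Further names (Ctss, Nlrc5, Tap1, Psmb8, Tap2, Brd2, Dexi, Kdm5d and genes named as not analysed) fall outside the rule and were chosen after values were seen.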

Additional observations from a re-analysis of the deposited data

How the results depend on the processing

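The count of class II genes called higher was 0 in the main test and in 7 of its alternatives with all libraries, and 4 with DESeq2. Leaving out 1 library gave 3 to 4. All genes called, in both directions, numbered 0 in the main test, 69 with DESeq2, and 1 each with no filter, with a mean CPM of at least 1, with upper-quartile scaling and with limma on log2(CPM + 2). That count was 27 when TP-1036 was left out, 29 without P1041, 91 without P1033 and 3923 without TP-1040. The cause was not tested. Over 12 alternatives log2 differences ran from 2.32 to 3.63 for Cd74, 1.63 to 3.51 for H2-Aa, 1.42 to 2.79 for H2-Ab1, 1.68 to 4.34 for H2-Eb1 and 0.19 to 0.45 for H2-DMa, with every lowest value from limma on log2(CPM + 2), whose pseudocount shrinks low genes. For Ciita it ran from -0.20 without P1041 to 0.085 without P1033, where its sign reversed. The summed genes per pan-myeloid marker differed 2.61-fold, per homeostatic microglia marker 3.10-fold, and per border macrophage and monocyte marker 0.910-fold. The last reverses the direction of the means only, since the groups overlapped. TP-1036 lay above both wild-type libraries and TP-1040 below both, and that list rests mostly on Lyz2. No paired analysis was possible because the column names carry no replicate number that the labels repeat. Wild-type levels rest on 10 to 108 reads per gene and library for Cd74 and the 3 chain genes, which limits the precision of each fold.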

Other observations

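Lists of the other retinal cells give the setting of the class II values, with 0 genes past the adjusted threshold in edgeR. The 10 ganglion cell markers all had lower values (median -0.57), 6 at an unadjusted p of 0.05, where 4.15% of all tested genes were lower and 4.72% higher, and their sums were 788 and 527 CPM in wild type and 486 and 428 CPM in TP-1036 and TP-1040. The wild-type libraries thus differed among themselves, with P1033 lower, and P1033 also had more Cd74 than P1041 (3.27 against 1.67 CPM). The 9 rod markers were all higher, by a median of 0.24, and the 10 Müller glia markers by 0.38, with 5 at an unadjusted p of 0.05. Apoe, a lipid carrier of Müller glia that microglia and macrophages also make, stood out in that list with 1017 and 1250 CPM in wild type and 2620 and 2046 CPM in the other group (1.04 ± 0.18, log2, SE), and DESeq2 called it higher. The 7 tested endothelial markers had a median of 0.18, with 5 higher. Of 6 tested genes of the pigmented epithelium and uvea 3 were higher and 3 lower. The thyroxine carrier Ttr and the visual cycle gene Rgr lay at 1.42 ± 0.23 and 1.06 ± 0.22 (log2, SE), and the melanin genes Dct and Tyrp1 at -0.19 ± 0.63 and -0.28 ± 0.41. The lens list had 3 tested genes, all higher, with summed values of 3.31, 0.818, 233 and 5.71 CPM in P1041, P1033, TP-1036 and TP-1040.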
